A study of Mus musculus with 4 samples.

Results

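A set of 39 genes of the interferon response was followed in B16-F10 cells, a mouse melanoma cell line, that had or had not left the blood vessels of a zebrafish host. The genes were taken from the deposited count table by gene symbol, with Ddx58 as the symbol of the RNA sensor also called Rigi, and all 39 were found among its 53465 gene identifiers. They comprised 2 receptor subunits, 5 transcription factors, 4 sensors of nucleic acid, and effectors or regulators induced by interferon. The study asked how circulating tumour cells leave the circulation as multicellular clusters. Poly(A) RNA was sequenced from 2 libraries labelled extravasated (written E1 and E2) and 2 labelled not extravasated (N1 and N2), all of the same line and all in IMDM medium with 10% FBS. Per the labels, fluorescent cells were infused into the fish, and those that left the vessels as clusters were recovered and grown in culture. That same text stands on all 4 libraries, so the group rests on the extravasation label and the source name alone. The library titles carry a number that is the same within a group and differs between the groups, so whatever it marks cannot be told apart from extravasation. Whether a group's libraries stem from different fish or cultures is not stated, so p-values measure the spread between these libraries, which may be technical.

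Type I interferons bind a receptor made of Ifnar1 and Ifnar2, whose associated kinases Jak1 and Tyk2 phosphorylate STAT proteins, Stat2 among them. Together with Irf9 these form a complex that enters the nucleus and binds the interferon-stimulated response element of its target genes. The targets include sensors of foreign nucleic acid, proteins that block viral replication and factors that feed back on the pathway. In melanoma the response is known both for tumour immunity and for signalling within the tumour cells themselves.

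The promoters of 8 members are shown because they carry the element through which such genes are known to be switched on; the 8 were chosen after their values were seen. Each is the stretch of 160 bases upstream of the first listed start site in RefSeq (build GRCm38.p6), 5′ to 3′ on the strand of the gene. Capitals mark every match to the core of the response element, which is GAAA, any 2 bases and GAAA again, or to its reverse complement. The Isg15 stretch lies at chr4:156200819-156200978 on the minus strand, that of Ifit1 at chr19:34640729-34640888 on the plus strand, that of Ifit3 at chr19:34583369-34583528 on the plus strand and that of Rsad2 at chr12:26456453-26456612 on the minus strand. The Oas1a stretch lies at chr5:120907526-120907685 on the minus strand, that of Gbp3 at chr3:142559884-142560043 on the plus strand, that of Gbp7 at chr3:142530176-142530335 on the plus strand and that of Bst2 at chr8:71537473-71537632 on the minus strand. The levels of the first 4 were within 1.5-fold between N1 and N2, and those of the last 4 were further apart.
Isg15: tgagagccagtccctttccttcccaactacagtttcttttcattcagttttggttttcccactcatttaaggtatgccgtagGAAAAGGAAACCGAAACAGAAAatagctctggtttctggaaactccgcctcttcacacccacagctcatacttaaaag
Ifit1: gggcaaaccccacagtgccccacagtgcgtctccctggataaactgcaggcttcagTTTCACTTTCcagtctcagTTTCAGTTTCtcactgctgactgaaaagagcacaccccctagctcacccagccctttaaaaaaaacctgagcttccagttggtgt
Ifit3: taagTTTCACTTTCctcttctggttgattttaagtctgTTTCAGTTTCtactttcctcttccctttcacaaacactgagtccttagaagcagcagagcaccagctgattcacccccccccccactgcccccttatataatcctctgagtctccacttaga
Rsad2: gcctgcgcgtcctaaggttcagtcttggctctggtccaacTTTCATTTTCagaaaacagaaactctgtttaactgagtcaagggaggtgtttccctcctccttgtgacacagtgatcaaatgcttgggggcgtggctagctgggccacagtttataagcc
Oas1a: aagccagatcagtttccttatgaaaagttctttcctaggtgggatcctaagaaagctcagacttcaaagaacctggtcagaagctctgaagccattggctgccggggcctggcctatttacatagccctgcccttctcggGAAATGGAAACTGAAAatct
Gbp3: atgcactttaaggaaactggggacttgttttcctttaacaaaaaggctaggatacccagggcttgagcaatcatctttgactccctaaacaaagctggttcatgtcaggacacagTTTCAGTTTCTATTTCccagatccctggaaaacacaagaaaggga
Gbp7: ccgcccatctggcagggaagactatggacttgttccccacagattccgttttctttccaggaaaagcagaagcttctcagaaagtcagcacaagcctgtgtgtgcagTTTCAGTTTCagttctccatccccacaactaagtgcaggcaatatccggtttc
Bst2: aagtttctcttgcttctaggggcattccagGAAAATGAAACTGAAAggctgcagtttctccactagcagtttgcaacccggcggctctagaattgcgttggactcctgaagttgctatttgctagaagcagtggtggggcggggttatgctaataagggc
The Isg15 stretch carries 3 overlapping matches, and the Rsad2 stretch carries 1. Of the 39 genes, 30 had an entry in the promoter table, and 15 of these 30 held the core on either strand within 300 bases, from 250 before to 50 after a start site. The same window held it in 3.44% of the 32851 promoters of the table. The letters TTCNNNGAA, known as the gamma-activated site, occurred in 9 of the 30 and in 8.3% of all promoters, and in Bst2 and Ifitm3 they overlapped the core. Counted per gene, as the members are, the core occurred in 3.99% and the gamma-activated site in 9.55% of the 27025 genes of the table. A match is a string of letters and does not show that a factor binds there.

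The libraries held 11705904 (N1), 16430477 (N2), 13256522 (E1) and 19674733 (E2) counts. Levels are given in CPM, counts relative to a library's size as scaled by the trimmed mean of M-values (TMM), and with 2 libraries a group both values are printed in place of a mean. The 7 pigment cell markers, among them Pmel and Tyrp1, summed to 23900 to 30900 CPM in the 4 libraries, which fits the melanoma label. Of 8 leukocyte and macrophage markers 5 were at 0 in every library, the defining Ptprc and Adgre1 among them, and the list summed to 4.53 to 5.37 CPM. Of 5 endothelial markers 4 were at 0 (Cdh5, Kdr, Tek and Tie1), and the list summed to 0.0868 to 0.984 CPM. The 6 fibroblast markers, with Dcn and Lum at 0, summed to 8.5 and 8.85 CPM in the libraries not extravasated and to 10.8 and 11.3 CPM in the extravasated ones. The markers behind this sum went opposite ways. Col1a1 stood at 3.73 (N1), 4.05 (N2), 6.74 (E1) and 7.16 (E2) CPM, and Col1a2 at 2.43, 0.463, 3.18 and 2.53 CPM. Pdgfra stood at 2.6, 3.93, 1.36 and 1.05 CPM, and Col3a1 had at most 1 count a library. Of the plasmacytoid dendritic cell markers other than Bst2, Siglech and Ccr9 were at 0 and Tcf4, a widely expressed transcription factor, stood at 38.6 (N1), 34.4 (N2), 10.4 (E1) and 12 (E2) CPM.

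Of the 39 genes, 31 passed the filter on low counts, and 26 of these had a fitted level below that of the libraries not extravasated, against 6286 of all 12320 tested genes. Of these 31, 7 fell with extravasation (Ifih1, Ifit1, Ifit2, Oasl2, Gbp3, Rsad2 and Parp14), 1 rose (Irf3) and 23 were not called by edgeR's quasi-likelihood test at an adjusted p under 0.05. The 7 are 22.6% of the 31, against 25.9% of all 12320 tested genes called lower, and the 1 is 3.23%, against 19.1% called higher. In either direction 45.1% of all tested genes were called, so the share of members that fell is near the background. In bulk RNA, fewer cells that use a gene and less of its RNA per cell cannot be told apart. The median log2 fold change, extravasated minus not extravasated, was -0.54 over the 31 members and -0.02 over all tested genes. In 15 of the 31 both libraries not extravasated lay above both extravasated ones, as in 39% of all tested genes. In 1, Irf3, both extravasated libraries lay above the others, as in 37.3%. A gene can pass the filter through the group in which it is high, so these counts describe the 31 and are not a count over all 39.

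**Figure D1:**
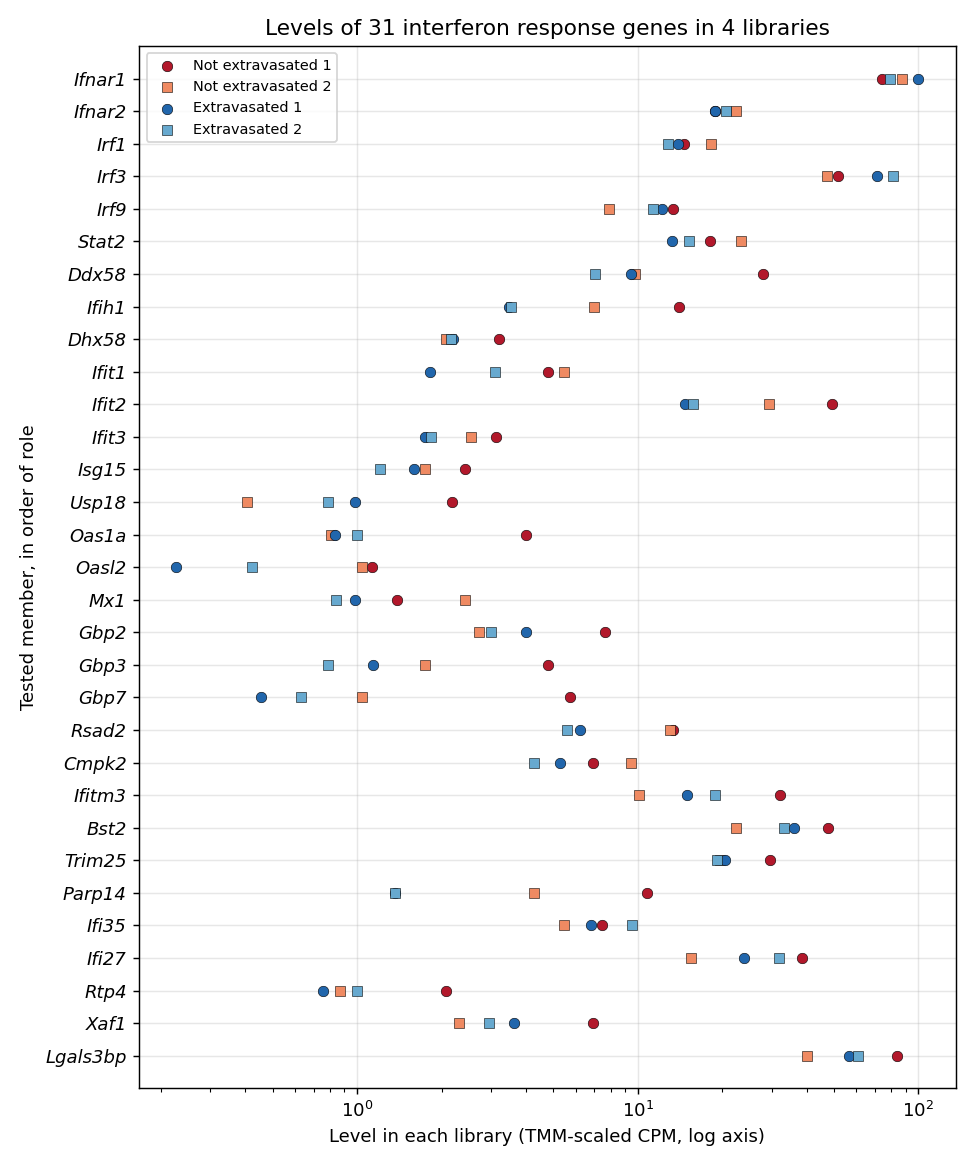
Levels of the 31 interferon response genes that passed the filter, in TMM-scaled CPM on a log axis, with 1 point for each of the 4 libraries and the genes in order of role. The first library not extravasated holds the highest level in 22 of the 31 rows. In 12 rows it is at least 1.5-fold above the second, which is not above both extravasated libraries. In 15 rows both libraries not extravasated lie above both extravasated ones.

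The 2 libraries not extravasated differed from each other in many of the 31 genes, and mostly the same way. N1 was at least 1.5-fold above N2 in 18 of the 31 (58.1%), against 12.1% of all tested genes; the fold of 1.5 was chosen as a description. In the opposite direction only Mx1 of the 31 differed that far, against 5.22% of all tested genes. N1 was above N2 by any amount in 24 of the 31, against 58.8% of all tested genes, and held the highest of the 4 levels in 22, against 31.6%. The median log2 difference, N1 minus N2, was 0.74 over the 31 and 0.07 over all tested genes. The extravasated libraries were closer: E1 was at least 1.5-fold above E2 in 0 of the 31, against 6.54% of all tested genes, and E2 that far above E1 in 2 (Ifit1 and Oasl2), against 4.07%. Each of these ratios compares single libraries, so there is no test, and the intervals below cover counting error only.

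Among the 31 tested genes the widest ratio of N1 to N2 was that of Gbp7, a guanylate-binding protein, at 5.5 (95% exact counting interval 3.23 to 9.84). Usp18, which removes Isg15 from proteins and dampens receptor signalling, followed at 5.36 (2.25 to 14.7). Oas1a, an oligoadenylate synthetase, stood at 4.93 (2.66 to 9.71), Ifitm3 at 3.19 (2.66 to 3.84) and Ddx58 at 2.87 (2.37 to 3.47). The interval lay above 1 in 18 of the 31 genes and below 1 in 5 (Ifnar1, Ifnar2, Irf1, Stat2 and Cmpk2). The ratio of E1 to E2 had an interval off 1 in 7 genes. The share of all tested genes with such intervals was not counted, so these counts describe the members only. In 12 of the 18 genes at least 1.5-fold higher in N1, N2 was not above both extravasated libraries: Irf9, Dhx58, Usp18, Oas1a, Gbp2, Ifitm3, Bst2, Trim25, Ifi27, Rtp4, Xaf1 and Lgals3bp. In the other 6 of the 18 (Ddx58, Ifih1, Ifit2, Gbp3, Gbp7 and Parp14) N2 lay between N1 and both extravasated libraries. Another pattern, N1 and N2 within 1.5-fold and both above E1 and E2, held in 8 genes: Irf1, Stat2, Ifit1, Ifit3, Isg15, Oasl2, Rsad2 and Cmpk2. For these patterns too the share of all tested genes was not counted. Of the 13 tested genes whose promoter entry holds the core of the response element, 8 were at least 1.5-fold higher in N1, and of the 12 whose entry lacks it, 5 were; this difference was not tested.

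**Figure D2:**
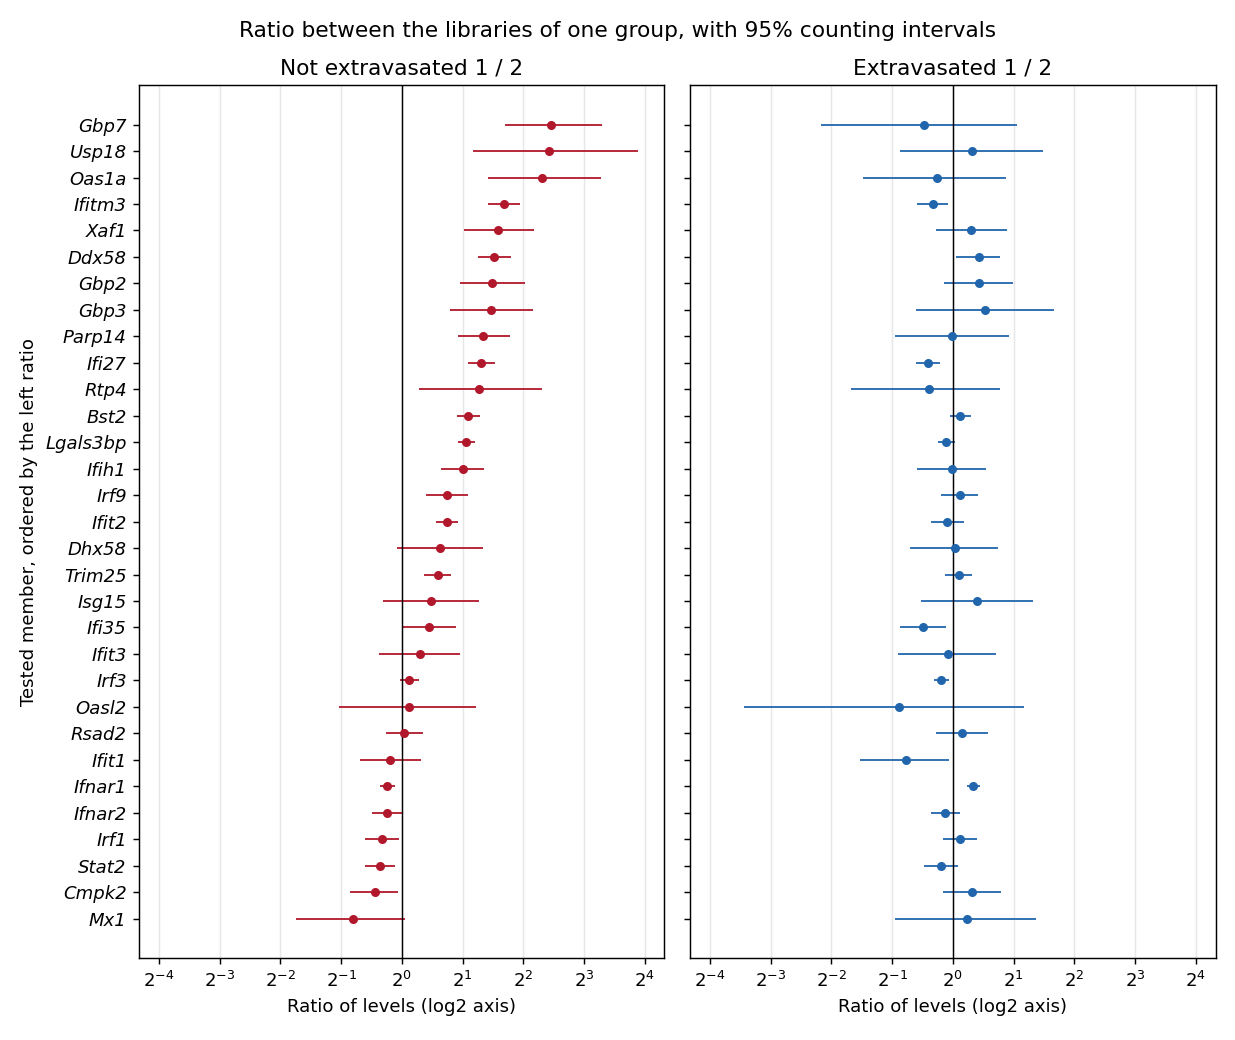
Ratio of levels between the libraries of each group for the 31 genes, on a log2 axis, as points with 95% exact counting intervals; the genes are ordered by the ratio of N1 to N2. In the left panel most ratios lie above 1 and reach 5.5 for Gbp7, and in the right panel they lie on both sides of 1.

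The receptor subunits were nearly level. Ifnar1 stood at 73.9 CPM in N1, 87.1 in N2, 100 in E1 and 79.4 in E2. The E1 and N2 values were the higher ones, the groups overlapped, and the log2 fold change was 0.15 ± 0.161 (SE; edgeR adjusted p = 0.462). Ifnar2 stood at 18.8, 22.3, 18.9 and 20.6 CPM in the same order of N1, N2, E1 and E2, which is kept for all genes below, with a log2 fold change of -0.06 ± 0.182 (edgeR adjusted p = 0.813). The 8 genes of type I, II and III interferon in the wider list had no count in any library. A count of 0 allows up to 3 counts, or 0.158 to 0.26 CPM depending on the library.

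Among the transcription factors Irf3 rose. This factor, which is present before infection and is activated by sensors of foreign nucleic acid, stood at 51.5, 47.1, 71.3 and 81.4 CPM. Both extravasated libraries lay above both others, and the log2 fold change was 0.63 ± 0.141 (edgeR adjusted p = 0.00983). Stat2, a subunit of the complex that binds the response element, stood at 18.1, 23.3, 13.2 and 15.2 CPM. Its groups did not overlap, but the change of -0.54 ± 0.205 missed the threshold (edgeR adjusted p = 0.0627). Its partner Irf9 stood at 13.3, 7.93, 12.2 and 11.3 CPM, with N2 alone low and a log2 fold change of 0.16 ± 0.276 (edgeR adjusted p = 0.666). Irf1, itself induced by interferon, stood at 14.6, 18.3, 13.9 and 12.8 CPM. N2 was its highest library, and the log2 fold change was -0.31 ± 0.203 (edgeR adjusted p = 0.249). Irf7, the factor that amplifies interferon production, had 7, 7, 4 and 2 counts and was not tested.

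Of the 3 tested sensors of double-stranded RNA, Ifih1 and Ddx58 were higher in N1 than in N2 beyond counting error, and the ratio of Dhx58 was 1.54 with an interval that includes 1 (0.948 to 2.51). Ifih1, which encodes MDA5, fell from 14 and 7.0 CPM to 3.48 and 3.53 CPM, with a log2 fold change of -1.57 ± 0.365 (edgeR adjusted p = 0.0121). N1 was 2.0-fold above N2, and both lay above the extravasated libraries. Ddx58, which encodes RIG-I, stood at 28.0, 9.78, 9.46 and 7.06 CPM. N1 stood apart, N2 was close to E1, and the change of -1.19 ± 0.519 was not called (edgeR adjusted p = 0.118). Dhx58, which encodes the regulator LGP2, stood at 3.21, 2.08, 2.20 and 2.16 CPM, with N1 alone high and a log2 fold change of -0.26 ± 0.379 (edgeR adjusted p = 0.599). The fourth sensor, Zbp1, had 1 count in N1 and 0 elsewhere.

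Of the Ifit genes, whose products bind viral RNA and which lie side by side on chromosome 19 (34550694 to 34650009, GRCm38), 2 of 3 tested members fell. The background was 25.9% of all tested genes called lower. Ifit2 fell from 49.1 and 29.4 CPM to 14.7 and 15.7 CPM, a log2 fold change of -1.36 ± 0.255 (edgeR adjusted p = 0.00612). Ifit1 fell from 4.77 and 5.44 CPM to 1.82 and 3.11 CPM, a log2 fold change of -1.03 ± 0.357 (edgeR adjusted p = 0.0469). Its N1 and N2 values were close, and E1 was the lowest library. Ifit3 stood at 3.12, 2.55, 1.74 and 1.84 CPM, and its change of -0.65 ± 0.358 was not called (edgeR adjusted p = 0.173). The neighbouring copy Ifit3b had 5, 20, 6 and 5 counts and was not tested. Ifit3 shares 51.2% of its 50-base stretches with Ifit3b, so the division of reads between them is uncertain.

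Isg15 and Usp18 form a modifier system in which Isg15 is the ubiquitin-like tag. Isg15 stood at 2.43, 1.74, 1.59 and 1.21 CPM, from 21 to 30 counts a library, with a log2 fold change of -0.57 ± 0.418 (edgeR adjusted p = 0.298). Usp18 stood at 2.17, 0.405, 0.984 and 0.790 CPM. N1 was its highest library and N2 its lowest, on 25 and 7 counts, so the fold change of -0.46 ± 0.762 averages libraries on both sides of the extravasated ones (edgeR adjusted p = 0.654).

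The oligoadenylate synthetases, which make short oligoadenylates when they meet double-stranded RNA, had few counts outside Oas1a in N1. Oas1a stood at 3.99, 0.810, 0.833 and 1.0 CPM, with N1 alone high and N2 just below both extravasated libraries. Its change of -1.31 ± 0.759 was not called (edgeR adjusted p = 0.2), and 57.6% of its 50-base stretches also occur in Oas1g. Oasl2, a related protein, fell from 1.13 and 1.04 CPM to 0.227 and 0.421 CPM, a log2 fold change of -1.66 ± 0.557 (edgeR adjusted p = 0.0427). That call rests on 13, 18, 3 and 8 counts. Oasl2 passed the filter on low counts through the libraries not extravasated, where it is high. With no expression filter Oasl2 was not called (-1.66, edgeR adjusted p = 0.0653). With the filter at a CPM above 1 in at least 2 libraries it was called (-1.66, edgeR adjusted p = 0.0404). The other members of the family were not tested: Oas2 had 17, 6, 6 and 2 counts, Oasl1 had 2, 5, 2 and 12, and Oas3 had 0 in every library.

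Of the interferon-induced GTPases, 1 of 4 tested members fell, against 25.9% of all tested genes. Gbp7 stood at 5.73, 1.04, 0.454 and 0.632 CPM, on 66, 18, 6 and 12 counts. N1 was 10.5-fold above the mean of the extravasated libraries and N2 1.92-fold above it, and the log2 fold change of -2.55 ± 0.884 was not called (edgeR adjusted p = 0.0588). Gbp3 fell from 4.77 and 1.74 CPM to 1.14 and 0.790 CPM, a log2 fold change of -1.74 ± 0.571 (edgeR adjusted p = 0.0409). Gbp2 stood at 7.64, 2.72, 4.01 and 3.0 CPM, with N1 alone high and a log2 fold change of -0.54 ± 0.503 (edgeR adjusted p = 0.414). These 3 genes, whose products attack the membranes of intracellular pathogens, lie together on chromosome 3 (142530342 to 142638008, GRCm38). Mx1, the other tested GTPase, was the exception in order: it stood at 1.39, 2.43, 0.984 and 0.842 CPM with N2 highest. Its ratio of N1 to N2 was 0.571, with an interval that includes 1 (0.3 to 1.04). The change of -1.09 ± 0.465 in Mx1 was not called (edgeR adjusted p = 0.0892). Mx2, the neighbour of Mx1, had 9, 2, 2 and 4 counts. Gbp7 shares 12.8% of its 50-base stretches with other genes, mainly Gm43802, whose exons overlap it on the same strand.

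Rsad2 gave the call with the smallest adjusted p among the members. It encodes viperin, which makes a nucleotide analogue that ends viral RNA chains, and it fell from 13.4 and 13 CPM to 6.21 and 5.58 CPM. The libraries of each group were close, and the log2 fold change was -1.16 ± 0.218 (edgeR adjusted p = 0.00529). Cmpk2, the nucleotide kinase next to it on chromosome 12 (26442746 to 26479837 for the pair, GRCm38), stood at 6.94, 9.49, 5.30 and 4.26 CPM. Its groups did not overlap either, but the change of -0.79 ± 0.281 missed the threshold (edgeR adjusted p = 0.051).

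The membrane effectors were among the most abundant members per length of transcript, and N2 was their lowest library. Bst2, or tetherin, which holds budding virus at the cell surface, averaged 43.9 CPM per kb over the 4 libraries, ahead of Irf3 at 30.9, Ifi27 at 30.8, Ifitm3 at 28.0 and Lgals3bp at 25.9 CPM per kb. Bst2 stood at 47.5, 22.3, 36.0 and 33.2 CPM, so N1 and N2 lay on either side of the extravasated libraries and the log2 fold change was -0.00 ± 0.358 (edgeR adjusted p = 0.995). Ifitm3, which blocks virus entry at endosomes, stood at 32.1, 10.1, 15.0 and 18.8 CPM. It had the same order at the ends, N1 highest and N2 lowest, with a log2 fold change of -0.30 ± 0.534 (edgeR adjusted p = 0.683).

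Parp14, an enzyme that attaches single ADP-ribose units, fell most of the called members. It stood at 10.8 and 4.28 CPM in N1 and N2 and at 1.36 and 1.37 CPM in E1 and E2, a log2 fold change of -2.44 ± 0.498 (edgeR adjusted p = 0.00803). N1 was 2.53-fold above N2 (1.89 to 3.43), and N2 was 3.13-fold above the mean of the extravasated libraries. Trim25, a ubiquitin ligase that acts on RIG-I, stood at 29.6, 19.6, 20.5 and 19.2 CPM, with N1 alone high and a log2 fold change of -0.30 ± 0.224 (edgeR adjusted p = 0.301).

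None of the 5 tested members of the remaining group was called by edgeR, against 45.1% of all tested genes. In 4 of the 5 N1 was at least 1.5-fold above N2, against 12.1% of all tested genes. Lgals3bp, a secreted glycoprotein that binds galectins, stood at 83.8, 40.2, 56.6 and 60.9 CPM (-0.07 ± 0.344, edgeR adjusted p = 0.88). Ifi27 stood at 38.4, 15.5, 23.9 and 31.9 CPM (0.07 ± 0.436, edgeR adjusted p = 0.916). In both genes, and in Xaf1, N1 was the highest library and N2 the lowest. Xaf1, whose product antagonises an inhibitor of apoptosis, stood at 6.94, 2.31, 3.63 and 2.95 CPM (-0.47 ± 0.521, edgeR adjusted p = 0.499). Rtp4, on 10 to 24 counts a library, stood at 2.08, 0.868, 0.757 and 1.0 CPM (-0.68 ± 0.551, edgeR adjusted p = 0.346). Ifi35, the exception, stood at 7.46, 5.44, 6.81 and 9.53 CPM (0.36 ± 0.287, edgeR adjusted p = 0.34), and 16.8% of its exon bases overlap Gm11626 on the opposite strand. Ifi44, the other member of the group, had 0 counts in every library.

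The group contrast also followed the base composition of the transcripts. Over 12295 tested nuclear genes the log2 fold change correlated with the GC content of the principal transcript (Spearman 0.73, across genes, which are not independent replicates), and over the 31 members the correlation was 0.76. At the low end Gbp7 has 41.7% GC, Ifit2 42% and Ifih1 42.8%, with fold changes of -2.55, -1.36 and -1.57, and at the high end Irf3 has 56.7%. Parp14, with 46.3%, had a lower fold change (-2.44) than others of like GC content. After each library was corrected for GC content and transcript length, the correlation over the 31 was 0.06 and edgeR called 0 of the 31 in either direction. At an unadjusted p under 0.05 there were 6 of the 31 (19.4%), against 32.3% of all tested genes. Of all tested genes 14.1% were still called, 5.83% lower and 8.24% higher. The correction takes out any change that goes with GC content, technical or not. The median log2 fold change of the members moved little, from -0.54 to -0.48, while that of all tested genes was 0.04. The corrected median of the members depended on N1. It was 0.02 without N1 (0.05 over all tested genes) and -0.67 without N2 (0.07 over all tested genes). Without E1 it was -0.42, and without E2 -0.49.

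Single members moved by very different amounts under the correction. Ifih1 went from -1.57 to -0.36 (edgeR adjusted p = 0.448), Ifit2 from -1.36 to -0.22 (0.448), Rsad2 from -1.16 to -0.25 (0.429), Ifit1 from -1.03 to -0.12 (0.85) and Irf3 from 0.63 to 0.18 (0.362). Parp14 kept a larger part, at -1.53 ± 0.442 (edgeR adjusted p = 0.0579), as did Oasl2 at -1.5 (0.103) and Gbp3 at -1.15 (0.182). Others moved further below 0: Isg15 from -0.57 to -1.03 (edgeR adjusted p = 0.113), Irf1 from -0.31 to -0.58 (0.0823), Bst2 from -0.00 to -0.59 (0.253) and Oas1a from -1.31 to -1.53 (0.192). In all, 28 of the 31 had a negative fold change after correction, against 46.3% of all tested genes. The log2 difference of N1 minus N2 had a Spearman correlation of -0.14 with GC content over the 31 and -0.24 over 12291 tested genes. N1 was at least 1.5-fold above N2 in 16 of the 31 after the correction, against 7.92% of all tested genes, and the median log2 difference was 0.62 over the 31 against -0.02 over all tested genes.

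**Figure D3:**
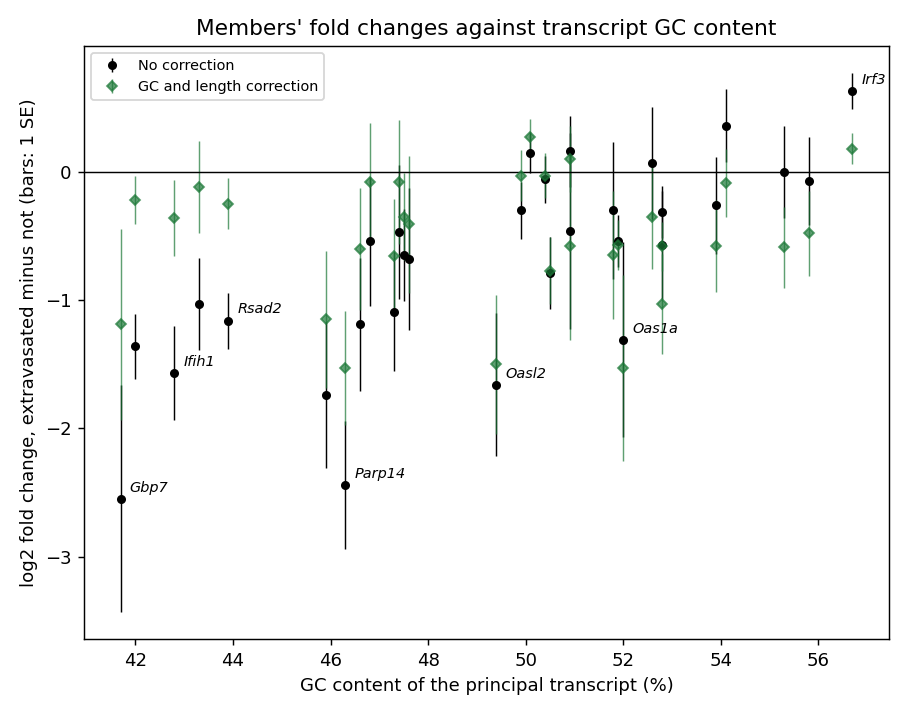
Log2 fold change of the 31 genes, extravasated minus not extravasated, against the GC content of the principal transcript, before (black) and after (green) GC and length correction; bars are 1 SE. Before correction Gbp7, with the least GC (41.7%), lies lowest and Irf3, at 56.7% GC, highest, and the correlation is 0.76. After correction the correlation is 0.06.

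**Figure D4:**
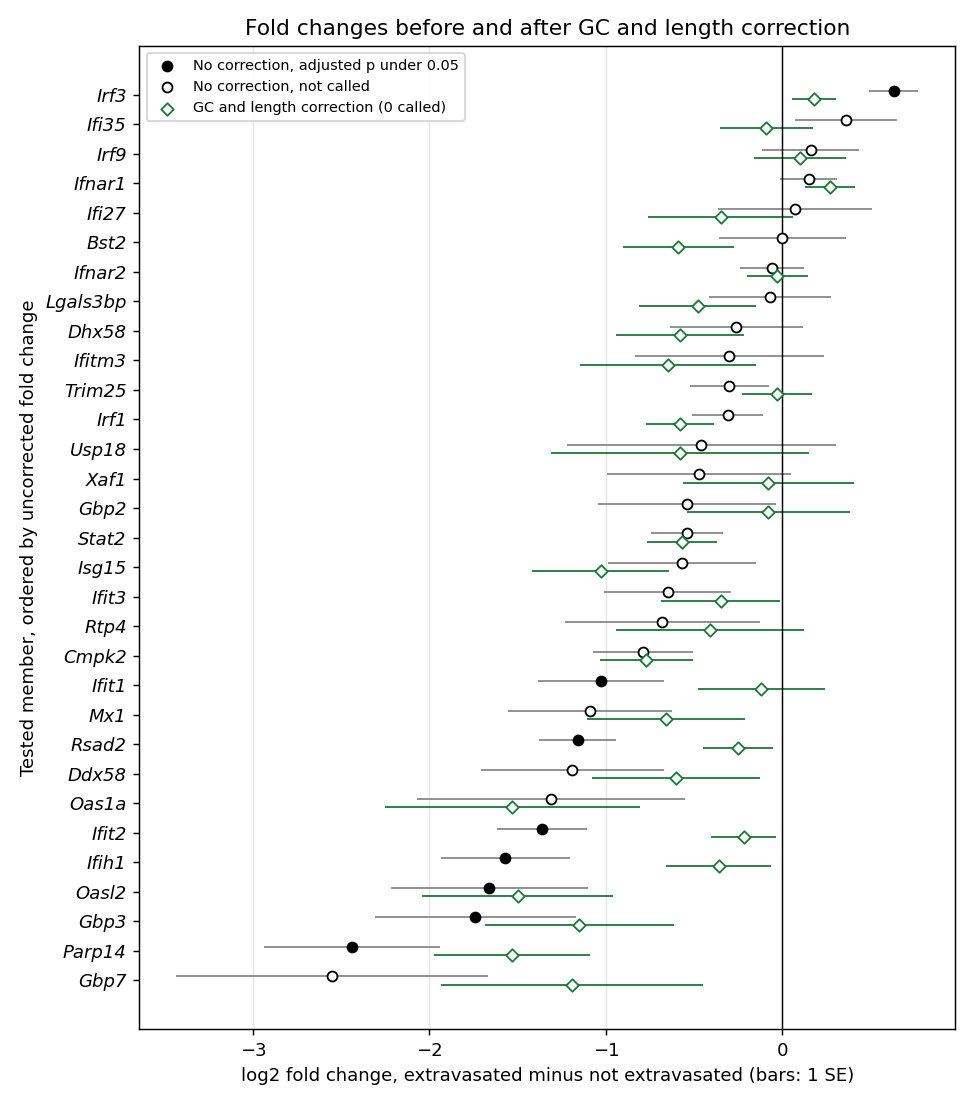
Log2 fold changes of the 31 genes before and after GC and length correction, with bars of 1 SE; filled points are the 8 genes called before correction. No gene is called after it, and Parp14 and Oas1a then lie lowest, at -1.53 each.

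Which members were called depended on which library stood for a group. Without N1, 8 of the 31 were lower (27.3% of all tested genes were called lower) and 5 higher (21.5%), the 5 being Irf3, Ifitm3, Bst2, Ifi27 and Lgals3bp by edgeR. Without N2, 14 were lower (28.1%) and 1 higher (19.4%), and Ifitm3, Bst2 and Lgals3bp were then among the 14 lower. These 3 genes thus changed the direction of their call with the library left out, in fits where the lone library is assumed to vary like the others. Without E1 the edgeR calls were Rsad2 lower and Irf3 higher (background 15.1% and 12.7%), and without E2 there were 0 (background 10.5% and 4.29%), with 6 members at an unadjusted p under 0.05. With GC and length correction added, 3 were lower without N1 (Irf1, Stat2 and Cmpk2; background 10.9%) and 9 without N2 (Ddx58, Oas1a, Gbp3, Gbp7, Ifitm3, Bst2, Parp14, Ifi27 and Lgals3bp; background 7.51%), and 0 were higher.

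Outside the 39, 85 genes of the interferon pathway were listed, of which 53 were tested, 17 fell and 5 rose (edgeR, adjusted p under 0.05). These are 32.1% and 9.43% of the 53, against 25.9% and 19.1% of all tested genes. Their median log2 fold change was -0.18. After GC and length correction 3 remained called, all lower, Eif2ak2 and Tbk1 among them, which is 5.66% of the 53 against 5.83% of all tested genes. N1 was at least 1.5-fold above N2 in 6 of the 53, against 12.1% of all tested genes. After correction it was so in 4 of the 53, against 7.92%. Eif2ak2 encodes PKR, the kinase that stops translation on double-stranded RNA, and fell from 57.7 and 43.7 CPM to 12.6 and 8.48 CPM. Its log2 fold change was -2.28 ± 0.242 (edgeR adjusted p = 0.001) and -1.31 ± 0.186 after correction (adjusted p = 0.00767). Tbk1, the kinase that activates Irf3, fell from 48.3 and 53.1 CPM to 20.1 and 17.9 CPM, at -1.42 ± 0.157 (edgeR adjusted p = 0.000987) and -0.75 ± 0.143 after correction (adjusted p = 0.0176). In both genes the groups did not overlap. When 1 library at a time was left out, both corrected calls were lost without E2, where the edgeR adjusted p was 0.127 for Eif2ak2 and 0.19 for Tbk1, and that of Tbk1 also without E1 (0.144). The corrected fit without E2 called 0 genes of the whole table, with 2105 at an unadjusted p under 0.05, and that without E1 called 133. The fold changes in these fits were -1.09 without E2 and -1.53 without E1 for Eif2ak2, and -0.74 and -0.73 for Tbk1.

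Of the kinases named here that carry the receptor signal, Jak1 and Jak2 fell and Tyk2 rose. Jak1 fell from 154.0 and 180.0 CPM to 92.3 and 80.8 CPM (-0.95 ± 0.142, edgeR adjusted p = 0.00241). Jak2, which acts at the receptor of interferon gamma, fell from 38.6 and 41.0 CPM to 12.3 and 13.9 CPM (-1.60 ± 0.167, edgeR adjusted p = 0.000862). In both genes N1 and N2 were close, and after correction neither was called (edgeR adjusted p = 0.0672 for Jak1 and 0.054 for Jak2). Tyk2 rose from 31.1 and 32.2 CPM to 44.1 and 44.3 CPM (0.48 ± 0.142, edgeR adjusted p = 0.027). Of the 7 tested feedback genes of the list 2 fell and 0 rose, against 25.9% and 19.1% of all tested genes. Pias1 went from -1.30 (edgeR adjusted p = 0.00129) to -0.07 after correction (adjusted p = 0.783), and Ptpn2 from -1.17 (edgeR adjusted p = 0.00167) to -0.27 (adjusted p = 0.235).

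Of 10 tested genes of the induction pathway 4 fell (Tbk1, Traf6, Cgas and Tlr3) and 2 rose (Mavs and Sting1). The background was 25.9% of all tested genes called lower and 19.1% called higher. Traf6, Cgas and Tlr3, named here after their values were seen, had log2 fold changes of -0.86, -0.74 and -1.61 (edgeR adjusted p = 0.0051, 0.0237 and 0.0137), and of -0.01, -0.07 and -0.30 after correction. Tlr3 stood at 18.7, 9.08, 3.94 and 5.0 CPM, with N1 2.05-fold above N2 (1.66 to 2.54). Traf6 stood at 53.9, 58.1, 34.1 and 27.7 CPM and Cgas at 16.4, 15.4, 10.6 and 8.48 CPM, with N1 and N2 close in both. Mavs, the mitochondrial adaptor of RIG-I and MDA5, rose from 46.1 and 39.5 CPM to 57.2 and 63.5 CPM (0.50 ± 0.149, edgeR adjusted p = 0.0287). Sting1, the adaptor for cytosolic DNA, rose from 28.4 and 23.7 CPM to 39.1 and 40.9 CPM (0.62 ± 0.161, edgeR adjusted p = 0.017). The chemokine gene Ccl5 rose from 1.04 and 0.926 CPM to 2.12 and 3.0 CPM (1.39 ± 0.417, edgeR adjusted p = 0.0289), and Ogfr rose by 0.60 ± 0.131 on the log2 scale (edgeR adjusted p = 0.00927). Adar, which edits double-stranded RNA, stood at 51.1, 42.1, 51.7 and 55.3 CPM and was not called (0.20 ± 0.153, edgeR adjusted p = 0.311). After correction none of the 5 risers was called. The fold change of Sting1 was then 0.52 ± 0.148 (edgeR adjusted p = 0.0544) and that of Ccl5 0.86 ± 0.409 (0.191), while Tyk2 and Mavs stood at 0.22 each (0.273 and 0.297) and Ogfr at 0.12 (0.54).

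**Figure D5:**
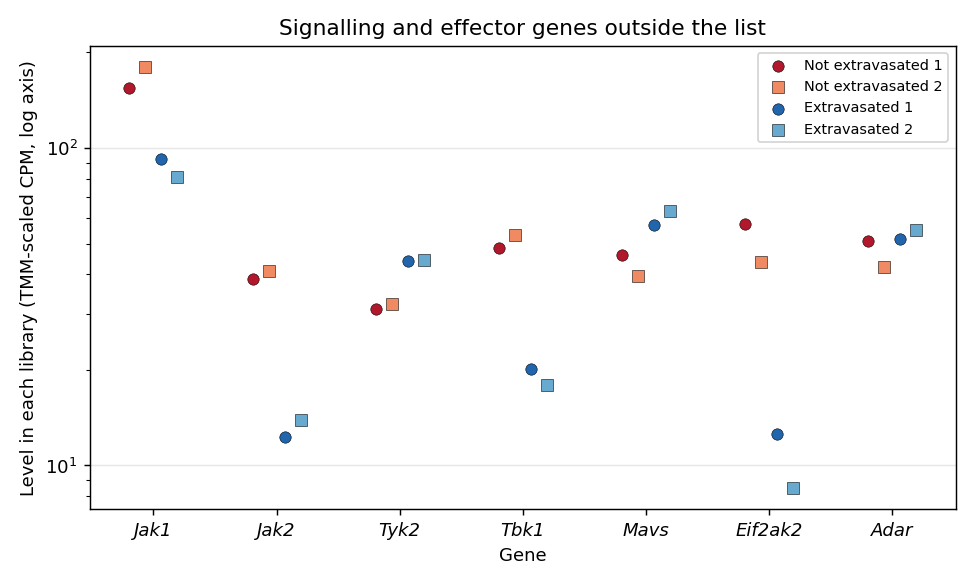
Levels of 7 signalling and effector genes outside the 39, in TMM-scaled CPM on a log axis, with 1 point for each of the 4 libraries. Eif2ak2, Tbk1, Jak1 and Jak2 are lower in both extravasated libraries, Tyk2 and Mavs are higher, and Adar is near the same level in all 4.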

How the data were processed

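RNA was purified and made into stranded poly(A) libraries, per the labels' protocols. Reads were demultiplexed with bcl2fastq 2.18.0.12 and processed with STAR 2.5.3a on GRCm38, per the submitters' processing notes; the counting program, its strand setting and the annotation are not given in the sources used here. The authors deposited raw counts per gene for 4 libraries, and no row lacked a gene. The identifiers were matched to GENCODE M21 (50604 of 53465 with version, 53274 without), which gave symbols and principal transcripts. The 39 members, the 85 pathway genes and the marker lists were chosen with earlier results of these data known. Every member is accounted for; of the pathway genes, up to 6 with the smallest adjusted p in each direction and a set of signalling genes are named, except that results for some of them are not reported here.

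Counts were tested with edgeR 4.0.16 in R 4.3.3 (filterByExpr with a minimum count of 10 and a minimum total of 15, TMM, quasi-likelihood test with robust moderation, two-sided), with Benjamini-Hochberg adjustment over all 12320 tested genes and a threshold of 0.05. SE is the log2 fold change divided by the root of its F statistic. Tested on simulated data of the same design, the fit recovered 65.8% of genes changed by 1 on the log2 scale and 93.4% of those changed by 2. The simulation changed few genes and held no GC trend and no shift of a single library. Its rates may therefore not carry over to the deposited counts. In the GC and length correction, each library's log2 CPM was taken relative to the gene's mean over the libraries of the fit. Added smooths (mgcv 1.9.3, basis size 10) of this difference on GC content and log2 length entered edgeR as an offset. Mitochondrial genes were left out of the smooths. Alternatives used other scaling, filters, DESeq2 1.42.0, limma 3.58.1 (voom), a replicate block and each library left out. Depth ran from 11705904 to 19674733 counts; ratios of single libraries have exact (Clopper-Pearson) 95% intervals, which cover counting error only, since reads without molecular identifiers are not independent molecules.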

Additional observations from a re-analysis of the deposited data

How the results depend on the processing

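Over other scaling factors, filters, DESeq2 and limma-voom, 6 to 10 of the 31 tested members were lower and 1, Irf3, higher. With the filter at a CPM above 1 in at least 2 libraries, 28 members were tested. In either direction these fits called from 5209 (DESeq2) to 6151 (no expression filter) of all genes. The fit with no expression filter tested every gene with a count, so its total is drawn from more genes. A share of all genes called lower was not counted for these fits, so the totals give no background for the member counts. DESeq2 called Ddx58 and Gbp7 but not Ifit1 and Oasl2. At an adjusted p under 0.01, 3 were lower (15.3% of all tested genes) and 1 higher (7.33%). With GC and length correction, on the principal or the longest transcript, 0 were lower and 0 higher, with 6 at an unadjusted p under 0.05 in each. Leaving out 1 library at a time gave 0 to 14 lower and 0 to 5 higher, with the correction or without. The median log2 difference, N1 minus N2, was 0.62 with the correction on either transcript and with the filter at a CPM above 1 in at least 2 libraries, against 0.74.

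The suffix of the titles (C or a letter) is shared across groups but is not said to pair libraries, and the difference between suffixes correlated at r = 0.11 between the groups over 12320 genes. With it as a replicate block, 10 were lower and 1 higher (28.7% and 21.4% of all tested genes); with the correction and the replicate block, 4 were lower (Irf1, Stat2, Oas1a and Parp14) and 0 higher (10.6% and 14.1%).

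Some log2 fold changes changed sign; Ifih1, Ifit1 and Ifit2, which were called lower without correction, did so under the correction with a library left out. The values were, with RLE factors, Bst2 0.02. With upper quartile factors, Ifnar2 0.03, Bst2 0.11, Lgals3bp 0.04. With DESeq2, Bst2 0.02. With limma-voom, Usp18 0.02, Ifitm3 0.02, Bst2 0.14, Lgals3bp 0.05. With no expression filter, Bst2 0.01. With the replicate block, Bst2 0.08, Lgals3bp 0.01. With the correction, Ifi35 -0.09, Ifi27 -0.35. With the correction on the longest transcript, Irf9 -0.01, Ifi35 -0.11, Ifi27 -0.36. With the correction and the replicate block, Gbp2 0.02, Ifi35 -0.11, Ifi27 -0.27, Xaf1 0.03. With the correction and without N1, Ddx58 0.30, Ifih1 0.04, Ifit2 0.02, Usp18 0.99, Gbp2 0.80, Gbp7 0.18, Ifitm3 0.31, Trim25 0.26, Rtp4 0.29, Xaf1 0.86, Lgals3bp 0.16. With the correction and without N2, Ifnar2 0.12, Irf9 -0.22, Ifit1 0.11, Ifi35 -0.31, Ifi27 -0.85. With the correction and without E1, Ifnar2 0.08, Ifit1 0.24, Ifi27 -0.13. With the correction and without E2, Gbp2 0.05, Ifi35 -0.33, Ifi27 -0.59. Over the fits that left out 1 library without the correction, the members that changed sign ranged as follows: Dhx58 -0.55 to 0.06, Usp18 -1.29 to 1.10, Oas1a -2.09 to 0.19, Gbp2 -1.13 to 0.35, Ifitm3 -0.91 to 0.75, Bst2 -0.45 to 0.63, Trim25 -0.57 to 0.02, Rtp4 -1.21 to 0.04, Xaf1 -1.08 to 0.50, Lgals3bp -0.51 to 0.55, Ifnar2 -0.17 to 0.10, Irf9 -0.17 to 0.57, Ifi27 -0.45 to 0.85. The cause was not tested. Members with few counts, such as Usp18 and Oasl2, have wide counting intervals, and ratios there are imprecise.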
